A study of Mus musculus with 6 samples.

Results

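The Kruppel-like factors (KLFs) are a family of zinc finger transcription factors, and 10 of their genes were followed here, chosen by gene symbol (Klf2, Klf3, Klf4, Klf5, Klf6, Klf7, Klf9, Klf10, Klf13 and Klf15) out of 53797 genes in the deposited table. The cells were MLO-Y4, a murine osteocyte-like cell line. The LIPUS group comprised 3 cultures that received low-intensity pulsed ultrasound for 20 min at 1.5 MHz and 30 mW/cm2, and the Control group comprised 3 untreated cultures. Both groups grew in the same serum-containing medium, and according to the methods they shared culture plates in which the transducers under the control wells were unplugged, and RNA was taken 30 min after the stimulation. The table gives each gene a single FPKM (fragments per kilobase of exon, scaled to the mapped fragments of the library) per group, pooled by the authors, and no value of a single culture. The spread between cultures therefore could not be computed, no test was run, and every ratio below is a comparison of 2 pooled values that has no replicate check. According to the authors, a control culture stood apart from the other controls in their principal component analysis. They propose that stimulation may have leaked to control cells, because both groups shared a plate. The part of that culture, and of any leakage, in the values below was not tested.

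KLFs bind GC-rich and CACCC sequences through zinc fingers at their C terminus and differ in the partners that their N termini recruit. Klf2 and Klf4 are known as genes induced by fluid shear in endothelial cells, where the kinases MEK5 and ERK5 act on MEF2 factors at their promoters. Klf10 was first described in osteoblasts as an early gene induced by TGF-beta, and mice without it have bone defects. Several family members, among them Klf4, Klf6 and Klf10, behave as early response genes in many cell types, which makes the family of interest soon after a mechanical stimulus.

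In MLO-Y4 cells Klf10 was the most abundant KLF in both groups and lay furthest above control of the 10 genes, with 48.2 FPKM in control cells and 86.1 FPKM with LIPUS. Klf7 and Klf2 were lower with LIPUS, by 1.93-fold and 1.51-fold, at low levels. Klf3 and Klf9 were higher by less than 1.5-fold, and Klf4, Klf5, Klf6 and Klf13 differed by less than 0.3 on the log2 scale. Klf15 was listed at 0 in both groups. Of the 9 genes that reached an FPKM of 1 in at least 1 group, 1 was at least 1.5-fold higher and 2 were at least 1.5-fold lower with LIPUS. Among all 11999 genes at that level, 18.8% lay beyond 1.5-fold, 9.25% higher and 9.59% lower. With 9 genes, nothing particular to the KLFs is read from this count. The median log2 ratio of LIPUS over Control was -0.03 over these 9 genes and -0.00048 over all genes.

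**Figure D1:**
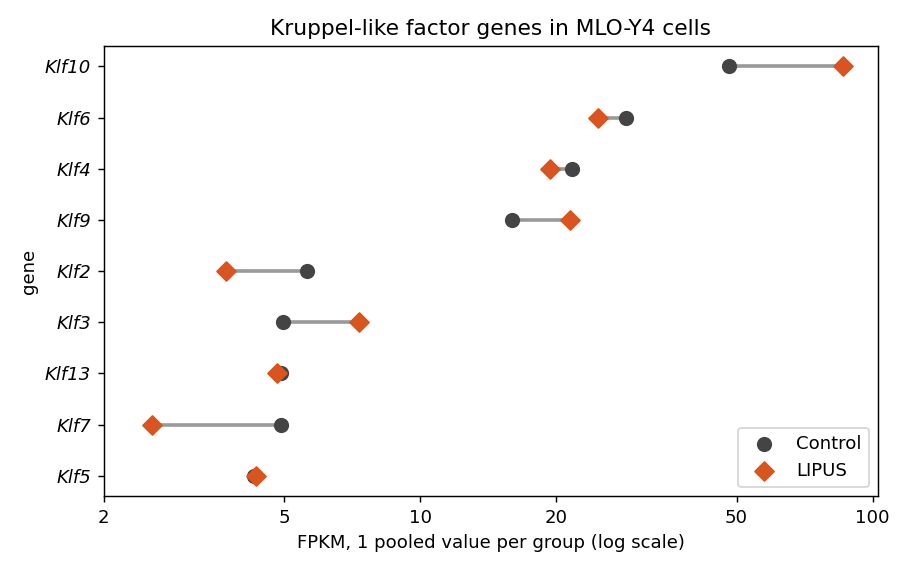
FPKM of 9 KLF genes (horizontal axis, log scale) in the Control group (dark grey circles) and the LIPUS group (orange diamonds), 1 pooled value per group and therefore no error bars, in order of the Control value. Klf10 stands at the top with 48.2 and 86.1 FPKM, Klf7 and Klf2 are lower with LIPUS, and Klf15, at 0 in both groups, cannot be drawn on a log axis.

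The promoters of the KLF genes with the larger differences are shown first. RefSeq windows (GRCm38.p6, 250 bases before to 50 after the start site) were found for 8 of the 10 genes, and not for Klf5 and Klf10. Klf2 (chr8:72318812-72319111, plus strand) and Klf7 (chr1:64121340-64121639, minus strand) lay furthest below control, and Klf3 (chr5:64803271-64803570, plus strand) and Klf9 (chr19:23140976-23141275, plus strand) lay furthest above it among these 8. The RefSeq starts of Klf2, Klf3 and Klf7 lie inside the GENCODE gene models given further on, so these genes may also start upstream of the windows' start sites. The sequences run 5′ to 3′ on the strand of the gene, and capitals mark every match, on either strand, to the motifs described after them.

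Klf2: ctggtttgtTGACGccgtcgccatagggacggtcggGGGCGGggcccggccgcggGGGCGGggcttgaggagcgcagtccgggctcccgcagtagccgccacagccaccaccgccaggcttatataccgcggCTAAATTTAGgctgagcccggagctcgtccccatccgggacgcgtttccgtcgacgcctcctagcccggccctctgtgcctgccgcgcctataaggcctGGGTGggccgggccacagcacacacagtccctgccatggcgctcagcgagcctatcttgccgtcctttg

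Klf7: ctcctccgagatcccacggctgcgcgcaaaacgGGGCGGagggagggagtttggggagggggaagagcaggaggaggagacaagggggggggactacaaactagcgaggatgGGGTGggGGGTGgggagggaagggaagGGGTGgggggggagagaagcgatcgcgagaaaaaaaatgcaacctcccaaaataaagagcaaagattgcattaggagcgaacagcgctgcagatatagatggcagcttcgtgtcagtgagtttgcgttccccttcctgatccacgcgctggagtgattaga

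Klf3: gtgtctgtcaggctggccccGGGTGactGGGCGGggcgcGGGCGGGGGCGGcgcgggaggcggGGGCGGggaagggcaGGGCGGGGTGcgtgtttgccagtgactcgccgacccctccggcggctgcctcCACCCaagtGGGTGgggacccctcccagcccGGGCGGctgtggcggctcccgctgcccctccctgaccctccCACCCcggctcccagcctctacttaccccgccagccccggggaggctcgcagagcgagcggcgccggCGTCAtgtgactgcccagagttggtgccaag

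Klf9: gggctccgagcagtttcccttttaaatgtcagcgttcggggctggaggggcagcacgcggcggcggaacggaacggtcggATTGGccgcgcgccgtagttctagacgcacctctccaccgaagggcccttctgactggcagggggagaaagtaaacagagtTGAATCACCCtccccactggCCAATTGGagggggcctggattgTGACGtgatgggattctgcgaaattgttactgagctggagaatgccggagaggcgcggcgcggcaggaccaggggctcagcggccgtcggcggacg

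The GC box GGGCGG, a site of Sp and KLF proteins, was found in 7 of the 8 KLF windows and in 35.6% of all 32817 RefSeq promoter windows. The CACCC box, the core bound by KLFs themselves, was found in 6 of 8 and in 57.5% of all windows. In Klf3 it occurred 5 times beside 6 GC boxes, in Klf7 it occurred 3 times, and 1 GC box and 1 CACCC box of Klf3 share a base. TGACG, the core of the cyclic AMP response element, was found in 6 of 8 windows against 20.8%, and its full form TGACGTCA, which contains it, in 0 of 8 against 1.79%. The CCAAT box was found in 4 of 8 windows against 37.4%, with 3 matches in Klf9, of which 2 overlap. The AP-1 motif TGANTCA was found only in Klf9 (7.81% of all windows), where it overlaps a CACCC box. Neither a CArG box, the site of serum response factor (1.63%), nor TATAAA (13.6%) was matched in any of the 8. Klf2 alone held a MEF2 site (3.19% of all windows), from -118 to -109 bases relative to its start site, a motif that was added to the search after this sequence had been seen. The KLF windows had GC contents from 58.3% (Klf7) to 76.7% (Klf3), against a median of 52.7% over all windows. The part of GC content in the motif shares was not tested. A match describes letters in these windows and is not evidence of binding.

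**Figure D2:**
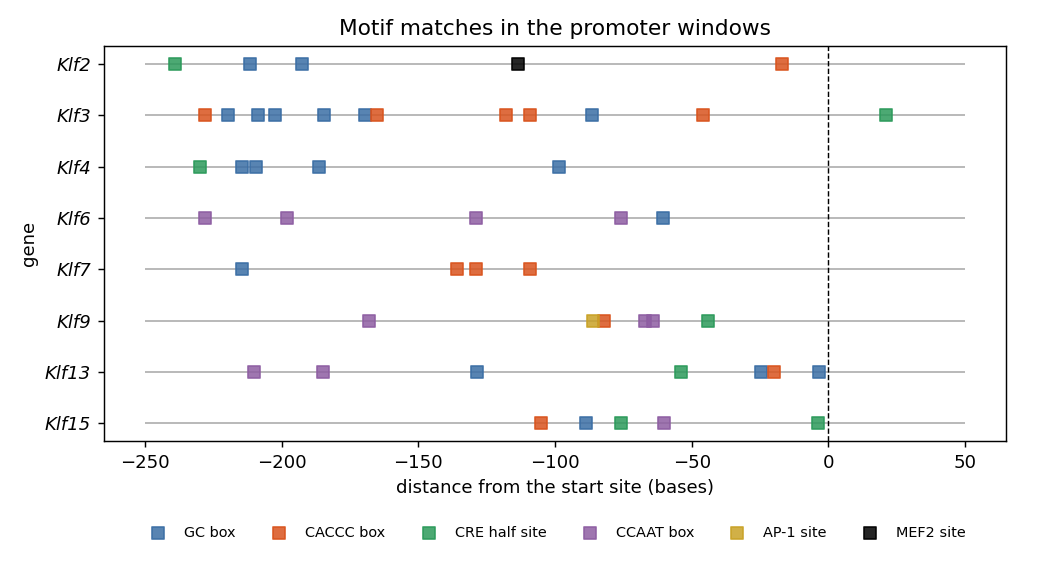
Matches to 6 motifs (coloured squares, at the centre of each match) in the promoter windows of 8 KLF genes, against the distance from the RefSeq start site in bases (dashed line at 0). GC and CACCC boxes fill the Klf3 window, CCAAT boxes recur in Klf6, Klf9 and Klf13, and the single MEF2 site lies in Klf2.

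Klf10, on chromosome 15 of GRCm38 from 38291463 to 38300706 (ENSMUSG00000037465, minus strand, 6 annotated transcripts), had 48.2 FPKM in control cells and 86.1 FPKM in LIPUS-treated cells. The ratio was 1.79-fold, a log2 ratio of 0.84. By level it ranked 2056th of all genes in control cells and 1139th in LIPUS-treated cells. Genes of similar abundance vary little between the groups. Of the 2381 genes whose higher FPKM lay from 30 to below 100, 6.13% were beyond 1.5-fold, and 32 (1.34%) were at least as far above control as Klf10. Klf10 supplied 29.8% of the summed FPKM of the 17 Klf genes in control cells and 42.6% with LIPUS. That sum went from 162 to 202 FPKM, whereas without Klf10 it was 113 FPKM in control cells and 116 FPKM with LIPUS. Over the followed KLF genes other than Klf10, the sum was 90.8 FPKM in control cells and 88.2 FPKM with LIPUS.

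Klf9, a gene known to be induced by glucocorticoids and thyroid hormone, lies on chromosome 19 from 23141226 to 23168134. It had 15.9 FPKM in control cells and 21.4 FPKM with LIPUS, a log2 ratio of 0.43. Of the 3623 genes from 10 to below 30 FPKM, 330 (9.11%) were at least as far above control. Klf3, a repressor that acts through the corepressor CtBP, had 4.99 FPKM in control cells and 7.34 FPKM with LIPUS, a ratio of 1.47-fold and a log2 ratio of 0.56. It lies just inside the 1.5-fold line, and 364 of 3080 genes (11.8%) from 3 to below 10 FPKM were as far above control. The annotated gene runs from 64803388 to 64832901 on chromosome 5. In the table its locus begins at 64708207, the first base of Gm20033, an overlapping gene on the other strand that is listed at 0 in both groups.

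Klf7, known for roles in neurons and adipocytes, had the largest ratio of the 10 genes in either direction. Its FPKM was 4.93 in control cells and 2.56 with LIPUS, a log2 ratio of -0.95. At this low level large ratios are common, and 161 of the 3080 genes from 3 to below 10 FPKM (5.23%) were as far below control. Klf7 lies on chromosome 1 from 64029447 to 64122282, and its 3′ end is overlapped on the opposite strand by the long noncoding RNA Gm26649, with 2.68 FPKM in control cells and 2.57 FPKM with LIPUS. The libraries were stranded, but whether the FPKM used the strand is not given in the sources used here, so reads of the overlap may belong to either gene. The other annotated genes that overlap Klf3, Klf7, Klf9 or Klf13 are listed at 0 in both groups.

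Klf2, the gene induced by shear in endothelium, lies on chromosome 8 from 72319033 to 72321656 and had 5.63 FPKM in control cells and 3.73 FPKM with LIPUS. Its log2 ratio of -0.59 is barely beyond the 1.5-fold line, and 380 of the 3080 genes of like level (12.3%) were as far below control. Klf4, which shares the shear response with Klf2 and is also a pluripotency factor, had 21.7 FPKM in control cells and 19.3 FPKM with LIPUS, a log2 ratio of -0.16. Klf6, a widely expressed factor of tissue injury, had 28.4 and 24.7 FPKM, a log2 ratio of -0.20. The values of Klf4 and Klf6 were thus slightly below control, and 56.7% and 48.0% of the genes of their level differed by as much in either direction. Klf5, a factor of smooth muscle and epithelial proliferation, had 4.29 FPKM in control cells and 4.34 FPKM with LIPUS. Klf13, a factor of lymphocytes and heart, had 4.93 and 4.82 FPKM. Both lay within 0.04 of equality on the log2 scale. Klf15, a glucocorticoid-induced regulator of amino acid and glucose metabolism, was listed at 0 in both groups, so no ratio exists. These genes lie at chr4:55527143-55532466 (Klf4), chr13:5861482-5870394 (Klf6), chr14:99298691-99315036 (Klf5), chr7:63886351-63938915 (Klf13) and chr6:90462576-90475238 (Klf15).

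**Figure D3:**
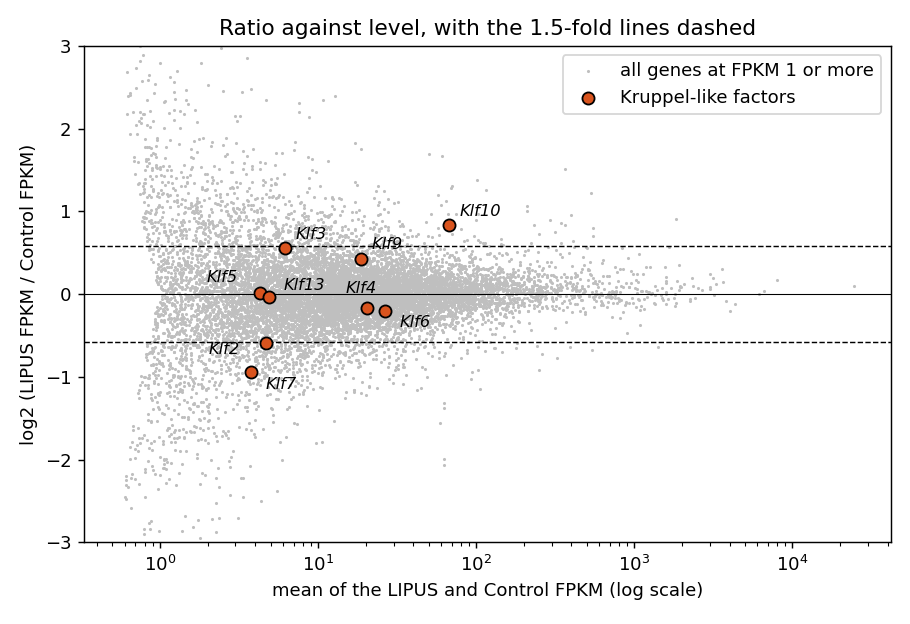
Log2 ratio of LIPUS over Control FPKM against the mean FPKM (log scale) for genes that reached an FPKM of 1 in either group (grey) and 9 KLF genes (orange), with dashed lines at 1.5-fold. Klf10 stands above most genes of its level, whereas Klf2, Klf3 and Klf7 lie where the grey cloud is wide. The 46 genes beyond 3 on the log2 scale and the 222 with a 0 in 1 group are not drawn.

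FPKM is scaled by transcript length, so levels can be set between genes. In control cells the FPKM fell into an upper set, Klf10, Klf6, Klf4 and Klf9 (48.2 to 15.9), and a lower set, Klf2, Klf3, Klf13, Klf7 and Klf5 (5.63 to 4.29). The genes of the lower set ranged from 2.56 to 7.34 FPKM with LIPUS. Since they were grouped by their control values, a wider range in the other group is not a result. With LIPUS the order became Klf10, Klf6, Klf9, Klf4, Klf3, Klf13, Klf5, Klf2 and Klf7. Whether any neighbours in these orders differ beyond the spread between cultures could not be determined from pooled values. The table's status column, which says whether the authors' program compared a gene, was OK for 5 of the 10 (Klf3, Klf4, Klf6, Klf9 and Klf10) and NOTEST for Klf2, Klf5, Klf7, Klf13 and Klf15. All genes with status OK reached at least 6.70 FPKM in 1 group, which Klf3 passed at 7.34 and Klf2 missed at 5.63. In bulk RNA, fewer cells expressing a gene and less RNA per cell cannot be told apart.

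The other 7 Klf genes of the family were mostly at or near 0. Klf14 and Klf17 were listed at 0 in both groups, and Klf1, Klf8 and Klf12 stayed below 0.4 FPKM. Klf16 had 21.0 FPKM in control cells and 25.1 FPKM with LIPUS, a log2 ratio of 0.26. Klf11, the closest relative of Klf10, had 1.09 FPKM in control cells and 2.35 FPKM with LIPUS, a log2 ratio of 1.10, in a range (1 to below 3 FPKM) where 51.0% of genes lay beyond 1.5-fold.

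KLFs are commonly divided by their partners into a set that binds acetyltransferases such as p300 (Klf1, Klf2, Klf4, Klf5, Klf6, Klf7), a set that binds CtBP (Klf3, Klf8, Klf12) and a set that binds the corepressor Sin3a (Klf9, Klf10, Klf11, Klf13, Klf14, Klf16). This division was applied after the values had been seen. Of the 5 acetyltransferase-binding genes at an FPKM of 1 or more, 2 were at least 1.5-fold lower and 0 higher, with log2 ratios from -0.95 to 0.02 and a median of -0.20. Both, Klf2 and Klf7, lie from 3 to below 10 FPKM, where 12.6% of all genes were at least 1.5-fold lower. Of the 5 such Sin3a-binding genes, 2 were at least 1.5-fold higher and 0 lower, with log2 ratios from -0.03 to 1.10 and a median of 0.43. These are Klf10, in a range where 3.15% of all genes were at least 1.5-fold higher, and Klf11, in a range where 25.5% were. The summed FPKM of the first set was 64.9 in control cells and 54.8 with LIPUS, and that of the Sin3a-binding set was 91.1 and 140 FPKM, of which Klf10 alone made up 48.2 and 86.1 FPKM. With 5 genes in each set, chosen after their values were seen, no difference between the sets is read from these counts. Klf3 was the only CtBP-binding gene at this level.

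Among the cofactors that KLFs recruit, 1 of 10 lay beyond 1.5-fold, with a median log2 ratio of -0.04. All 10 had status OK, and 9.42% of all genes with that status lay beyond 1.5-fold, so the count is near the general share. This was Sin3a itself, with 26.1 FPKM in control cells and 11.4 FPKM with LIPUS, a log2 ratio of -1.19. The most abundant, the histone deacetylases Hdac2 (68.8 and 68.9 FPKM in Control and LIPUS) and Hdac1 (63.6 and 62.5 FPKM), were nearly equal. In the related Sp family, which binds the same GC boxes, 3 of 9 genes were at 0 in both groups and 5 reached an FPKM of 1. Sp1 had 24.5 FPKM in both groups, and Sp3 had 23.3 FPKM in control cells and 28.4 FPKM with LIPUS. Sp4 (2.37 and 1.47 FPKM) and Sp7, the osteoblast factor osterix (5.86 and 3.75 FPKM), were at least 1.5-fold lower with LIPUS, at levels where 51.0% and 23.5% of all genes lay beyond 1.5-fold in either direction.

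**Figure D4:**
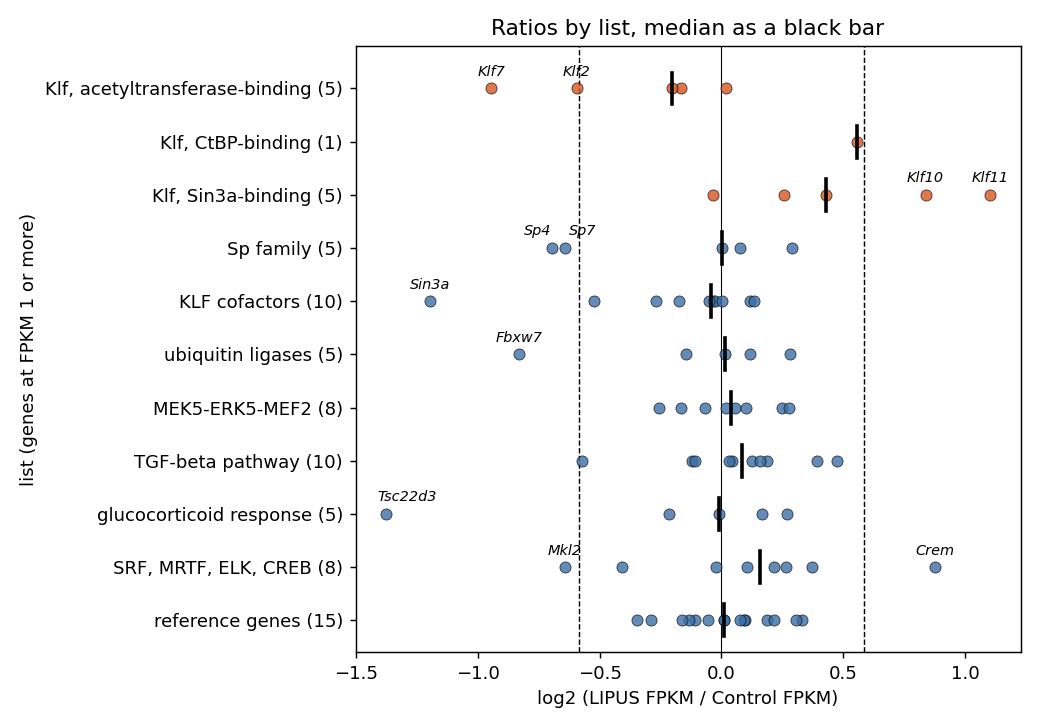
Log2 ratio of LIPUS over Control FPKM for genes at an FPKM of 1 or more in each list (points), with the median (black bar), the number of genes in parentheses and dashed lines at 1.5-fold. KLF genes are orange, named points lie beyond 1.5-fold, and the reference genes lie between -0.35 and 0.33.

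Inputs known to act on KLF genes were counted against the same backgrounds, 18.8% of all genes and 9.42% of those with status OK, which most of these inputs have, and no count below is read as particular to them. In the MEK5, ERK5 and MEF2 pathway upstream of Klf2 and Klf4, 0 of 8 genes at an FPKM of 1 or more lay beyond 1.5-fold, and the most abundant, Mef2d, had 101 FPKM in control cells and 96.5 FPKM with LIPUS, followed by Mef2a (51.8 and 46.2 FPKM). In the TGF-beta pathway that induces Klf10, 0 of 10 did so, with log2 ratios from -0.57 (Smad2) to 0.47 (Tgfbr1). Tgfb1, its main ligand gene here, had 80.9 FPKM in control cells and 92.0 FPKM with LIPUS, and its effector Smad3 had 58.2 and 54.0 FPKM. In the glucocorticoid list, which bears on Klf9 and Klf15, 1 of 5 genes was at least 1.5-fold lower. This was Tsc22d3, a glucocorticoid-induced leucine zipper gene, with 7.28 FPKM in control cells and 2.80 FPKM with LIPUS, whereas Sgk1 (907 and 780 FPKM) and the receptor gene Nr3c1 (18.3 and 20.5 FPKM) lay within 1.5-fold. Of 5 ubiquitin ligases that act on KLF proteins, Fbxw7 was lower, with 8.09 FPKM in control cells and 4.55 FPKM with LIPUS, while Smurf1 (21.2 and 23.0 FPKM) and Vhl (10.1 FPKM in both) were nearly equal. None of 15 reference genes, led by B2m (3218 and 3977 FPKM) and Actb (2929 and 3338 FPKM), lay beyond 1.5-fold.

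The osteocyte-like character was checked on markers. Spp1 (4514 FPKM in control cells), Pdpn (295), Cd44 (200.2) and Gja1 (176) were abundant. Dmp1 was low, at 3.04 FPKM in control cells and 7.65 FPKM with LIPUS. Of the osteocyte markers at an FPKM of 1 or more, Dmp1 alone lay beyond 1.5-fold. At its level 10.9% of all genes were at least 1.5-fold higher. Phex did not exceed 0.190 FPKM, and Sost, Mepe and Fgf23 were listed at 0. Of the 6 osteoblast markers, Alpl (293 FPKM in control cells and 189.7 FPKM with LIPUS), Runx2 (24.4 and 14.8 FPKM) and Sp7 were at least 1.5-fold lower with LIPUS, Col1a1 lay within 1.5-fold (891 and 731 FPKM), Bglap was listed at 0 in control cells and at 1.58 FPKM with LIPUS, and Ibsp was listed at 0 in both. At the levels of Alpl, Runx2 and Sp7, 2.53%, 5.13% and 12.6% of all genes were at least 1.5-fold lower, and nothing is read from the count of these markers. Among markers of other cells, 4 of 6 immune, 4 of 5 endothelial, 2 of 4 muscle and 2 of 4 adipocyte genes were at 0 in both groups. Ptprc (immune), Cdh5 (endothelial), Myod1 (muscle) and Plin1 (adipocyte) were among them. The adipocyte gene Adipoq was not, with 0.643 FPKM in control cells and 0.193 FPKM with LIPUS. Summed marker levels were 5.55 FPKM in control cells and 1.96 FPKM with LIPUS over the 6 immune genes, nearly all of it Cd68, 0.496 and 0 over the 5 endothelial genes, 2.03 and 5.70 over the 4 muscle genes, nearly all of it Acta1 (1.97 and 5.62 FPKM), and 52.9 and 30.5 over the 4 adipocyte genes, nearly all of it Fabp4. Their part in the KLF differences was not tested.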

How the data were processed

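RNA of 6 MLO-Y4 samples was grouped by the labels. According to the methods and processing notes, read trimming used Trimmomatic 0.36 and alignment to GRCm38 used TopHat2 2.1.0 with Bowtie2 2.2.6.0. The authors deposited a table in Cuffdiff layout with 1 FPKM per gene and group, pooled over 3 libraries (Cufflinks 2.1.1 in the notes, a later release in the methods). Its columns of the authors' fold changes, test statistics, p-values, q-values and calls were not used. The methods state the number of reads obtained per sample. The deposited values hold no counts, so the reads behind each gene are unknown, and low values are the least precise.

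The log2 ratio of LIPUS over Control FPKM was computed without a pseudocount for genes that reached an FPKM of 1 in either group, and differences of at least 1.5-fold were counted, also over genes of like level (edges at 3, 10, 30 and 100 FPKM). No p-value was computed, since genes are not replicates. The KLF genes and lists were chosen with earlier results of these data known. Genes named are the 10 KLFs and, from each other list, those beyond 1.5-fold and the 2 most abundant. Klf16, Gm26649, Gm20033, Smad2, Tgfbr1, the 0 values and the markers were named after their values were seen. Positions are from GENCODE M21 and promoters from RefSeq, both GRCm38. The counting step was tested on simulated data. Python 3.11.15, numpy 2.4.6, pandas 2.3.3 and matplotlib 3.10.9 were used.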

Additional observations from a re-analysis of the deposited data

How the results depend on the processing

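The number of KLF genes beyond the fold line was 5 when a ratio of 5 to 4 was enough (Klf3 and Klf9 added, both higher) and 0 at 2-fold. It was 1, Klf10, with a minimum FPKM of 10 and with status OK genes alone, and 2 with a minimum FPKM of 5. Of all genes with status OK, 9.42% lay beyond 1.5-fold. The shares over all genes at the other fold lines and at these minimums were not computed, so nothing is read from these counts. With a pseudocount of 0.1 or 1 it was 2, because Klf2 no longer passed the line (log2 ratio -0.58 and -0.49). The median log2 ratio was 0.13 with a minimum FPKM of 5 or 10 and 0.43 with status OK genes alone, because these settings leave out Klf7 and other low genes. When all 17 Klf genes were considered, a choice made after seeing the data, 11 reached an FPKM of 1. Of these 11, 4 lay beyond 1.5-fold, beside 18.8% of all genes, and the median log2 ratio of the 11 was 0.02. Klf2 and Klf7 lie from 3 to below 10 FPKM, where 23.5% of all genes lay beyond 1.5-fold. Klf11 lies from 1 to below 3 FPKM, where 51.0% did, and Klf10 from 30 to below 100 FPKM, where 6.13% did. Centring on the median of all genes, equal upper quartiles and equal total FPKM shifted ratios by at most 0.05 on the log2 scale and left the same count of 3. At equal totals Klf5, near 0 as deposited, had a log2 ratio of -0.03, while the direction of the other 8 genes was as reported. The log2 ratio of Klf10 was from 0.79 to 0.84 under the minimums, pseudocounts and scalings tried, above the 1.5-fold line and below the 2-fold line. No paired analysis was possible because the table holds 1 pooled value per group, and for the same reason no culture could be left out.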

Other observations

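Other genes that bear on early transcription were not described above. In the list of serum response factor, its coactivators, ELK and CREB family genes, 1 of 8 genes at an FPKM of 1 or more was at least 1.5-fold higher with LIPUS and 1 was at least 1.5-fold lower, beside 18.8% of all genes in either direction, and 23.5% from 3 to below 10 FPKM, where both lie. Crem, a cyclic AMP responsive gene, had 3.72 FPKM in control cells and 6.84 FPKM with LIPUS, and Mkl2, which encodes a coactivator of serum response factor, had 5.29 and 3.39 FPKM. The most abundant, Srf (74.8 and 80.5 FPKM) and Elk3 (62.6 and 75.2 FPKM), lay within 1.5-fold. Among genes known as targets of Klf2 or Klf4 in vascular cells, Nos3, Cdkn1c and Ptgds were listed at 0 in both groups. Thbd, which encodes thrombomodulin, had 393 FPKM in control cells and 452 FPKM with LIPUS, and Cdkn1a had 171 and 188 FPKM, both within 1.5-fold. None of these values has a replicate check.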
